A study of Mus musculus with 73 samples.

Results

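The genes described here are 7 transcription factors that hair cells of the inner ear share, out of 55291 genes in the count table. They are Pou4f3, Gfi1, Lhx3, Barhl1, Rfx1, Rfx3 and Rfx7, and they were chosen by name. Levels are given as CPM, a gene's counts scaled by the library total in the usual way. All 7 averaged at least 10 CPM, so none was lost to the filter on low values used for correlations. They were read in 73 single inner hair cells of mouse cochlea at postnatal day 14, each a full-length cDNA library.

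All cells carried the same alleles. Both Casz1 copies were floxed (Casz1flox/flox), and Cre was expressed from 1 Atoh1 allele (Atoh1Cre/+), a gene of developing hair cells. Cre also switched on the green reporter of the Ai47 allele, and Flp from 1 Fgf8 allele (Fgf8-Flpo/+) switched on a tdTomato reporter. Fgf8 marks inner hair cells, and the cells picked by hand showed both reporters and were labelled as Casz1-null. The cells form 1 group with no named animal, so they count as 1 sample without replicates. Wild-type cells were not analysed here. No test between conditions was possible, no p-value is given, and nothing below says what the deletion changed. Casz1 itself ran from 0 through 42.1 CPM to 283 CPM and was detected in 55 cells; which of its exons gave these reads was not tested.

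Libraries held 11027945 to 37183702 counts, and 1 count equals 0.0907 CPM in the shallowest and 0.0269 CPM in the deepest. A gene was called detected in a cell at 10 CPM, which is 110 to 372 counts. Of 10 general hair cell markers, 9 were detected in all 73 cells, and the tenth, Cdh23, in 71. Markers of other cochlear cell types were mostly near 0. Map2 (median 187 CPM) and Snap25 (142 CPM) of the neuron list were not, nor was Pvalb, also a general hair cell marker. In 22 cells, at least 1 of 51 markers of other cell types, each detected in fewer than 10 cells, reached 50 CPM. Markers found more often were not part of that rule, among them Map2 in 72 cells, Snap25 in 68, Cnp in 29, Sox10 in 27, C1qb in 22 and Gjb6 in 11. The other 51 cells are therefore not free of such transcripts. Shares of cells carry exact 95% limits (Clopper-Pearson), which cover counting error only.

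Hair cells are specified by Atoh1 and then kept alive and differentiated by a layer of later transcription factors. Pou4f3 is a POU-homeodomain factor needed for hair cell differentiation and survival, and its loss causes deafness in mice and in people. Gfi1 is a zinc-finger repressor that keeps neuronal genes off in hair cells, and Lhx3 (a LIM-homeodomain factor) and Gfi1 have been placed downstream of Pou4f3. Barhl1 is a homeodomain factor needed for long-term hair cell maintenance. Factors of the regulatory factor X family bind a DNA element called the X-box and control genes of cilia, and loss of Rfx1 together with Rfx3 leads to death of cochlear outer hair cells.

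Pou4f3 was the most even and most abundant of the 7. The gene is on the plus strand of chromosome 18 (mm10, 42394539 to 42397249). Its level was 60.9 CPM in the lowest cell, 450 CPM at the median and 1465 CPM in the highest, with quartiles of 341 and 563 CPM. All 73 cells passed the threshold (100%, interval 95.1 to 100), and 72 of them were at 100 CPM or more. Its coefficient of variation over cells was 0.467, and 4.42% of the 8619 genes averaging at least 10 CPM had a lower one. Relative to genes of like abundance it was average, since its squared coefficient of variation was 1.05 times a trend fitted over all these genes.

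Gfi1 was present in nearly every cell, over a wider range. It is on the minus strand of chromosome 5, 107716657 to 107726036. Levels ran from 1.40 CPM through a median of 136 CPM to 451 CPM, with quartiles of 70.8 and 219 CPM. Detection reached 69 of the cells (94.5%, interval 86.6 to 98.5), and the remaining 4 held 1.40, 1.47, 4.35 and 8.95 CPM. Those 4 libraries were not empty of hair cell transcripts. In the same order they held 719, 541, 452 and 849 CPM of Pou4f3, and 1455, 1719, 1231 and 1346 CPM of Slc17a8, the glutamate transporter of inner hair cell vesicles. All 4 Pou4f3 values were above the median over all cells.

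**Figure D1:**
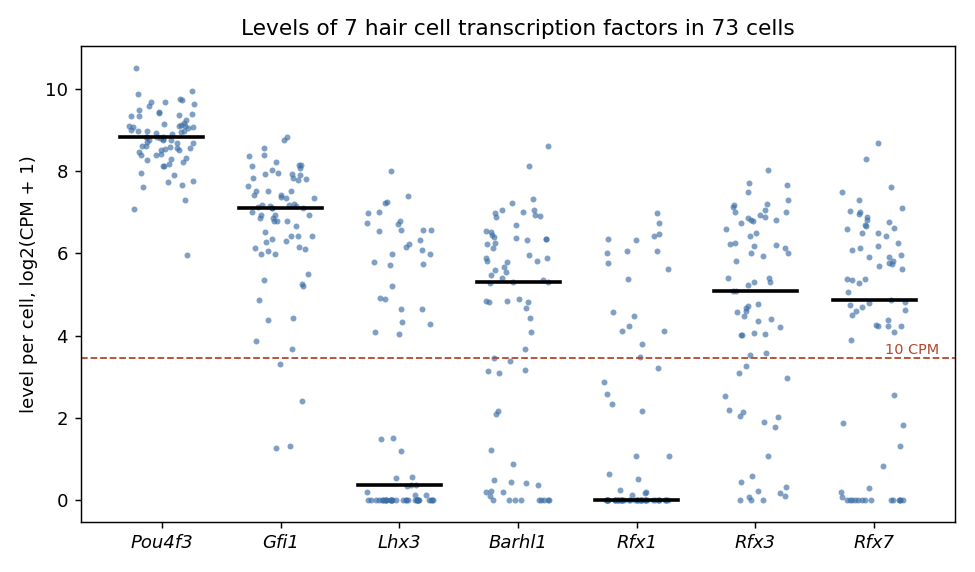
Level of each transcription factor in each of 73 cells, as log2(CPM + 1) on the vertical axis, with 1 point per cell, a black bar at the median and a dashed line at the detection threshold of 10 CPM. Pou4f3 lies above the line in all 73 cells, while Lhx3 is split into 42 cells below the line and 31 above it.

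Lhx3 was close to an on-off transcript. It is on the minus strand of chromosome 2, 26200212 to 26208289. Its level was 0 in the lowest cell, 0.296 CPM at the median and 254 CPM in the highest. No count was found in 31 cells, 8 cells were above 0 but under 1 CPM, and 3 were between 1 and 10 CPM. The other 31 cells (42.5%, interval 31 to 54.6) were detected, at a median of 70.6 CPM. No cell lay between 1.87 and 15.3 CPM, so the threshold falls in an empty range. The libraries without an Lhx3 count held 11027945 to 35881810 counts in total, and the rank correlation of Lhx3 with total count was -0.01. Whether a 0 means an absent transcript or one missed in the library was not tested. Relative to genes of like abundance the spread was not unusual. Its squared coefficient of variation was 1.19 times the fitted trend, and 71.2% of genes had a smaller excess.

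Barhl1 was intermediate. It is on the same chromosome and strand, 28907679 to 28916668. Its level ran from 0 through 38.4 CPM to 386 CPM, with quartiles of 1.32 and 80.6 CPM. The threshold was passed in 48 cells (65.8%, interval 53.7 to 76.5), with no count in 9 cells and 12 cells at 100 CPM or more. Unlike Lhx3, it had no empty range at the threshold, with values of 9.37 CPM just below it and 10.04 CPM just above.

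The 3 Rfx genes differed in how many cells held them. Rfx3 (chromosome 19, minus strand, 27761721 to 28011166) ran from 0 through 33 CPM to 260 CPM, and 52 cells had it (71.2%, interval 59.4 to 81.2). Rfx7 (chromosome 9, plus strand, 72532240 to 72622937) ran from 0 through 28.1 CPM to 413 CPM, and 51 cells had it (69.9%, interval 58 to 80.1). As with Lhx3, the threshold fell in an empty range, here between 4.89 and 13.9 CPM. Rfx1 (chromosome 8, plus strand, 84066834 to 84096992) was the rarest. Its median was 0, its highest level was 125 CPM, and 19 cells had it (26%, interval 16.5 to 37.6), with no count in 41. The interval of Rfx1 lies below those of Rfx3 and Rfx7, which overlap almost fully. The threshold was not scaled by length. Merged exons of Rfx1 (6431 bases) are shorter than those of Rfx3 (11034) and Rfx7 (15302), so 10 CPM is a higher bar per kilobase for Rfx1. All 3 were detected in 13 cells, 2 of them in 29, 1 in 25 and none in 6. The summed Rfx level was 112 CPM at the median and 446 CPM at most.

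A shared sequence stands at the start of the Rfx1 and Rfx3 genes. RefSeq promoter windows (GRCm38.p6, 250 bases before to 50 after a start) matched 6 of the 7 genes by symbol, in 9 windows. Pou4f3 had no entry. The stretches below are shown because both Rfx genes carry the same 14-letter element in them, written in capitals, and because Barhl1 carries a doubled homeodomain core, also in capitals. The first lies at chr8:84066821-84066850 on the plus strand, the second at chr19:28011122-28011151 on the minus strand and the third at chr2:28916621-28916650 on the minus strand, each read 5′ to 3′ along its gene.
Rfx1: agggtgggTAGCAACAGTTGCCccggtgag
Rfx3: gtgagttaTAGCAACCGTTGCCttgtgaat
Barhl1: ggtctgtgctgTAATTAATtcagtgtctct

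The shared element reads TAGCAACNGTTGCC and ends in GTTGCC, a core of Rfx sites. It is the longest stretch around that core in which the Rfx1 and Rfx3 windows differ by 1 letter. It covers the bases from -7 to 7 around the Rfx1 start and from 24 to 37 after the Rfx3 start. Since it was built from these windows, its presence there is no finding. On either strand it is in 5 of 32851 windows (0.0152%), of which Rfx1 and Rfx3 are 2. The shorter GTTGCC is in 12.5% of windows and, among the 6 genes with a window, again in Rfx1 and Rfx3 alone, at the same place. A full X-box, searched as GTTNCC followed 2 letters later by GGNAAC, is in 0.451% of windows and in none of the 9. TAATTAAT is in 0.852% of windows and starts 30 bases into Barhl1. The E-box CANNTG, the site class of Atoh1, is in 72.3% of windows and in 6 of the 9. AATCNNNG, the core of Gfi1 sites, is in 32.1% and in the windows of Barhl1 and Rfx1. Every motif was searched on both strands. These are matches of letters and not measured binding.

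Levels of different genes can be compared only per length. Divided by the merged exon length (GENCODE vM21), the median level in CPM per kilobase was 188 for Pou4f3, 42.6 for Gfi1, 9.83 for Barhl1, 2.99 for Rfx3, 1.84 for Rfx7, 0.0972 for Lhx3 and 0 for Rfx1. Pou4f3 (quartiles 142 and 235) stood apart from Gfi1 (22.2 and 68.8), and Gfi1 stood just above Barhl1 (0.339 and 20.6). The lower 5 overlapped in their quartiles. Pou4f3 was the highest of the 7 per kilobase in 72 cells. In the remaining cell, library 59, Gfi1 was at 50.7 and Pou4f3 at 25.4 CPM per kilobase. Merged exons of Rfx3 and Rfx7 add up to 11034 and 15302 bases over all annotated transcripts, and values per kilobase would be higher for a shorter form.

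Cells held different subsets of the 7 genes. A median of 5 was detected per cell (range 2 to 7), with 4 in 28 cells, 5 in 18, 6 in 14 and all 7 in 5. At 10 CPM, 5 of the 7 were detected in at least 37 cells, while Lhx3 and Rfx1 were not. Among genes averaging at least 10 CPM, 56.9% were detected in at least 37 cells, and among all 55291 genes 8.87% were.

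Paralogs of these factors were detected in few of the same cells, and partners of Rfx5 in more. Of 12 family members, Pou4f1, Pou4f2, Barhl2, Rfx6 and Rfx8 were detected in no cell, which allows up to 4.93% of cells by the exact limit and 4.11% by a limit of 3 counts. Gfi1b was detected in 2 cells, Lhx4 in 3, Rfx2 in 3, Rfx4 in 1 and Rfx5 in 15. Rfxap and Rfxank, partners of Rfx5 in the complex that drives MHC class II genes, were detected in 37 and 21 cells, more than Rfx1 in 19. Each of the 7 was detected in more cells than any of these paralogs. For Rfx1 against Rfx5 the intervals overlapped (16.5 to 37.6 and 12.0 to 31.6), so their order is not settled.

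Cofactors were more widespread. Of 8 cofactors, 6 were detected in at least 37 cells, against 56.9% of genes averaging at least 10 CPM and 8.87% of all genes. Ldb1, the adaptor that joins LIM-homeodomain proteins into complexes, was found in 62 cells (median 53.5 CPM), and Lmo4, a LIM-only protein that competes for it, in all 73 (median 176 CPM). Kdm1a, the histone demethylase recruited by Gfi1, was found in 57 cells (median 56.8 CPM), Hdac1 in 51 and Hdac2 in 56. Hdac3 was found in all 73 (median 563 CPM). Rcor1, which bridges the demethylase and the deacetylases, reached 10 CPM in 27 cells. Ldb2 was detected in no cell. Of 7 cofactors that could be compared, 1 reached 0.3 in size with Barhl1 (background 1.96%) and 1 with Rfx3 (0.975%). Both times it was Hdac3, at 0.30 and 0.31. With each of the other factors, 0 did.

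Across cells most pairs of the 7 genes were weakly correlated. The rank correlation over 73 cells had a median of 0.03 over the 21 pairs and ranged from -0.16 (Lhx3 and Barhl1) to 0.42 (Pou4f3 and Rfx7). The points share genotype and scaling and come from 1 group with no named animal, so correlations are given as descriptions. Of the 21 pairs, 1 reached 0.3 in size, against 1.84% of all 37139271 gene pairs. For comparison, 42 of 55 pairs within the inner hair cell list (median 0.31) and 13 of 45 within the outer hair cell list (median 0.21) did.

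**Figure D2:**
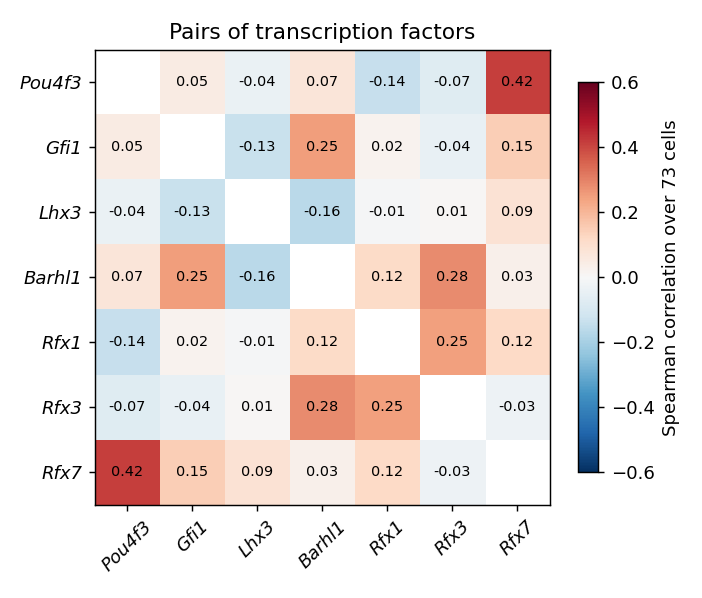
Spearman correlation over 73 cells for each pair of the 7 transcription factors, from blue (negative) to red (positive), with the value in each square. Of the 21 pairs, 17 are below 0.2 in size and Pou4f3 with Rfx7, at 0.42, is the only one at 0.3 or more.

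Pou4f3 and Rfx7 had the highest correlation of the 21 pairs, and the pair was singled out for that value. The correlation stayed between 0.40 and 0.43 under 8 alternatives of scaling, covariate, cells and depth, all from the same counts. It was 0.38 without the 2 cells farthest from the median of Pou4f3. In the 51 cells that held both genes it was 0.26. There, 6.22% of genes had a correlation as large in size with Pou4f3, and 6.27% with Rfx7. Rfx7 was among the 5 genes closest to Pou4f3 when unnamed and mitochondrially encoded genes were left out. Of all 8618 genes compared, 1.17% reached 0.3 in size with Pou4f3 and 2.15% with Rfx7. The mitochondrial share of counts stood at 0.14 with Pou4f3 and 0.22 with Rfx7, and the ribosomal protein share at -0.18 and -0.29. Correcting ranks for the mitochondrial share is 1 of the 8 alternatives. The part of the ribosomal protein share was not tested.

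**Figure D3:**
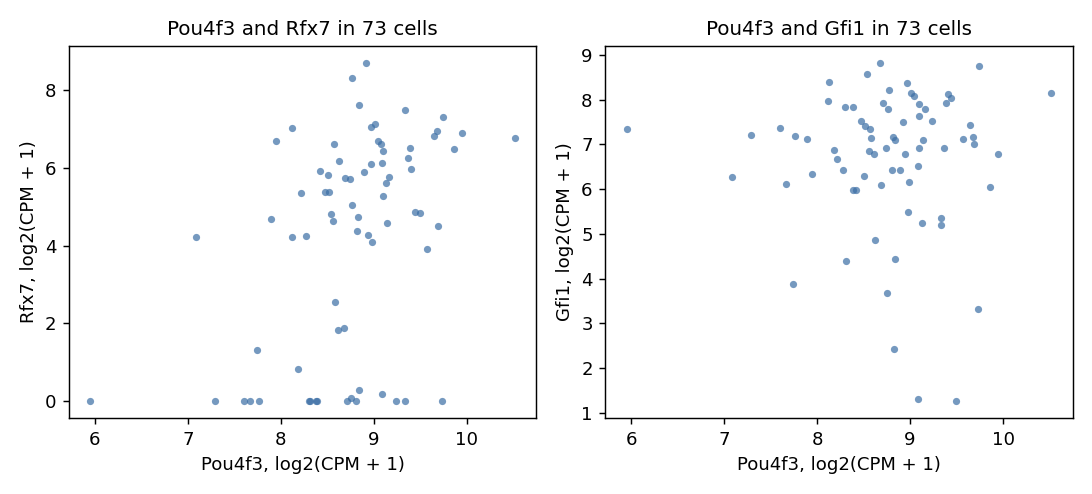
Level of Rfx7 (left) and Gfi1 (right) against Pou4f3 in 73 cells, both axes as log2(CPM + 1), 1 point per cell. Rfx7 rises with Pou4f3 (rank correlation 0.42), while Gfi1 shows no such slope (0.05).

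Next came Barhl1 with Rfx3 (0.28), Gfi1 with Barhl1 (0.25) and Rfx1 with Rfx3 (0.25), none of which reached 0.3. Under the 8 alternatives these ran from 0.25 to 0.30, from 0.23 to 0.32 and from 0.17 to 0.30. With only the cells that held both genes, a setting added later, none stayed as high. There, Barhl1 with Rfx3 stood at 0.15 (38 cells), Gfi1 with Barhl1 at -0.06 (46 cells) and Rfx1 with Rfx3 at -0.11 (15 cells). Without the 22 cells with a rare marker of another type, Gfi1 with Rfx1 went from 0.02 to 0.18. Barhl1 and Rfx3 were detected together in 38 cells, Barhl1 alone in 10, Rfx3 alone in 14 and neither in 11. Of the 19 cells with Rfx1, 15 also had Rfx3 (78.9%), which is 28.8% of the 52 cells with Rfx3. Lhx3 and Barhl1 leaned the other way: 17 cells held both, 14 held Lhx3 alone, 31 held Barhl1 alone and 11 held neither. Within the 17 cells that held both, the rank correlation was 0.58, against -0.16 over all 73. Over so few cells large values are common: 23.7% of genes reached 0.3 in size with Lhx3 there, and 1.82% were as large as 0.58. This pair was singled out after its value was seen, as the highest of 20 pairs with at least 10 such cells.

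Gfi1 and Lhx3 have both been described as depending on Pou4f3. Their correlations with its level were 0.05 and -0.04, and Gfi1 and Lhx3 stood at -0.13 with each other. Of the 10 genes described as regulated by Pou4f3, 9 could be compared and 0 reached 0.3 in size, against 1.17% of all genes, so a count of 0 among 9 is near the background. Their median was -0.01, with -0.002 over all genes. Bdnf, a neurotrophin, was highest at 0.25, and Caprin1 (0.06), Orc4 (0.11), Nr2f2 (-0.06), Ntf3 (-0.01), Myo6 (-0.05) and Myo7a (-0.01) lay near 0. Pou4f3 was above detection in every cell, so these values rank cells with more and less of it and include no cell without it.

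Neuronal genes, a group that Gfi1 is known to repress, were mostly rare. Of 15, 6 were detected in no cell: Neurod1, Neurog1, Elavl3, Elavl4, Stmn2 and Gap43. Nefl, Nefm, Snap25 and Isl1 were detected in 70, 64, 68 and 65 cells. Of 5 that could be compared, 0 reached 0.3 in size with Gfi1 (background 1.22%), with Isl1 at -0.19, Stmn3 at -0.18 and Snap25 at 0.11. With the other 6 factors, 2 values reached 0.3 in size: Nefl, a neurofilament subunit, with Lhx3 (-0.38, background 1.14%) and Stmn3, a microtubule regulator, with Rfx7 (-0.30, background 2.15%). In the 4 cells under 10 CPM of Gfi1, the summed level of the list was 382 to 1069 CPM, inside the range of 95.3 to 1593 CPM over all cells.

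Cilium genes are known targets of Rfx factors. Of 24 genes of intraflagellar transport and the BBSome, 13 were detected in at least 37 cells, led by Kifap3 (median 1075 CPM) and Dync2h1 (236 CPM). All but 1 of the 24 averaged at least 10 CPM. Among all genes averaging that much, 56.9% were detected in at least 37 cells, so the count of 13 is near that background. Of the 69 correlations of 23 of these genes with Rfx1, Rfx3 and Rfx7, 0 reached 0.3 in size, against backgrounds of 0.928%, 0.975% and 2.15%, so the count is near that for any genes. The median was 0.01, and the lowest and highest were Bbs4 with Rfx1 (-0.26) and Ift172 with Rfx3 (0.23). Of the genes with an X-box in the promoter window, 49 could be compared. Their median correlation was 0.011 with Rfx1, -0.016 with Rfx3 and 0.048 with Rfx7, and over all genes it was 0.0097, 0.0025 and 4.7e-05. These differences were not tested. Of these 49, 1 gene, Thop1, passed 0.3 in size, with Rfx3 and in the negative direction. It was named because the count was 1.

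Inner and outer hair cell genes were compared because these cells carry both kinds of transcript in varying amounts. Of 147 correlations of the 7 factors with 11 inner and 10 outer hair cell genes, 4 reached 0.3 in size (2.72%), against 1.84% of all gene pairs. These were Barhl1 with Fgf8 (0.32) and with Dnajc5b (-0.31), Rfx1 with Shtn1 (-0.35), and Rfx7 with Lbh (-0.40). Fgf8 is a signal made by inner hair cells, Dnajc5b a co-chaperone of their vesicles, and Lbh a transcription cofactor of outer hair cells.

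**Figure D4:**
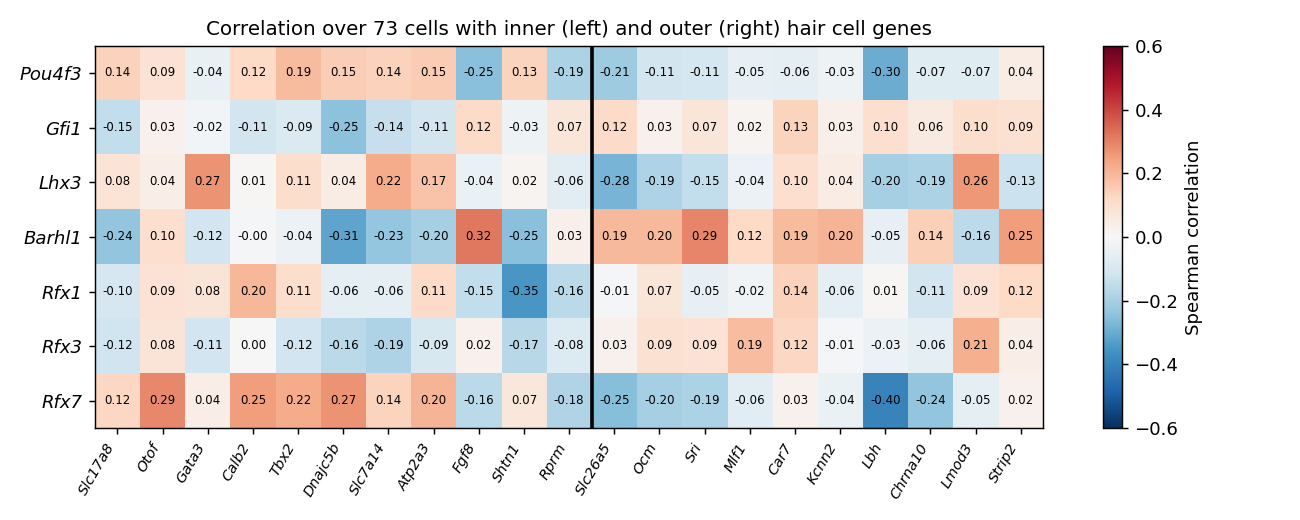
Spearman correlation over 73 cells of each transcription factor (rows) with 11 inner hair cell genes (left of the black line) and 10 outer hair cell genes (right), from blue (negative) to red (positive). Most squares are pale, and 4 of 147 values are 0.3 or more in size.

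By the list medians the factors leaned in different directions, all weakly. Pou4f3 stood at 0.13 with inner and -0.07 with outer hair cell genes, Rfx7 at 0.14 and -0.13, and Lhx3 at 0.04 and -0.14. Barhl1 stood at -0.12 and 0.19, Gfi1 at -0.09 and 0.08, Rfx3 at -0.11 and 0.06, and Rfx1 at -0.06 and -0.004. The median over all genes was between -0.005 and 0.01 for each factor. Many genes within a list are correlated with each other, so a lean over many of them is not many observations. The inner hair cell list also did not lean as 1. With Pou4f3, 8 of its 11 genes were positive and 3 negative, among them Fgf8 (-0.25) and Rprm (-0.19). With Gfi1, 8 were negative and 3 positive, among them Fgf8 (0.12) and Rprm (0.07). The value of Pou4f3 with inner hair cell genes was 0.0077 without the 22 cells that held a rare marker of another cell type. Without them Rfx7 stood at 0.061 and -0.059, and Lhx3 at 0.041 and -0.067. With ranks corrected for the mitochondrial share, Rfx7 stood at 0.040 and -0.063, and Lhx3 at 0.0047 and -0.13. Without the 22 cells Barhl1 moved away from 0 with inner hair cell genes (-0.21), as did Gfi1 (-0.16 and 0.14 with outer). By Pearson's correlation of log2(CPM + 1), the value with inner hair cell genes was -0.027 for Gfi1, 0.13 for Lhx3, -0.068 for Barhl1, -0.022 for Rfx3 and 0.20 for Rfx7, and for Rfx1 it turned positive (0.065).

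Among single genes, Slc26a5, which encodes the outer hair cell motor prestin, stood at -0.28 with Lhx3, -0.25 with Rfx7, -0.21 with Pou4f3, 0.19 with Barhl1 and 0.12 with Gfi1. Its values with Rfx1 and Rfx3 were -0.01 and 0.03. Gata3, a factor of inner hair cells, stood at 0.27 with Lhx3, its highest value among the 7, and Tbx2, which sets inner hair cell fate, at 0.22 with Rfx7 and 0.19 with Pou4f3. Casz1, the gene targeted in these mice, stood at 0.27 with Barhl1, 0.20 with Rfx3 and 0.16 with Rfx1, and at 0.04 with Pou4f3.

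The number of correlated partners among all genes was that of ordinary genes. The share of the other 8618 genes that reached 0.3 in size was 0.928% for Rfx1, 0.975% for Rfx3, 1.14% for Lhx3, 1.17% for Pou4f3, 1.22% for Gfi1, 1.96% for Barhl1 and 2.15% for Rfx7. The median gene had 1.22%, and the share of genes with fewer partners ran from 14.1% for Rfx1 to 78.2% for Barhl1 and 80.6% for Rfx7. Of 27 other hair cell genes, 23 had more partners than any of the 7, among them Atp2a3 (13.6%), Slc26a5 (13.0%), Tbx2 (5.91%) and Slc17a8 (5.27%). The other 4 lay within or below the range of the factors: Casz1 (1.64%), Strip2 (1.38%), Lmod3 (1.23%) and Hes6 (0.719%). Most of the 27 are inner and outer hair cell genes, whose lists were correlated within themselves. The mean level of Pou4f3 ranked 244 among all genes.

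**Figure D5:**
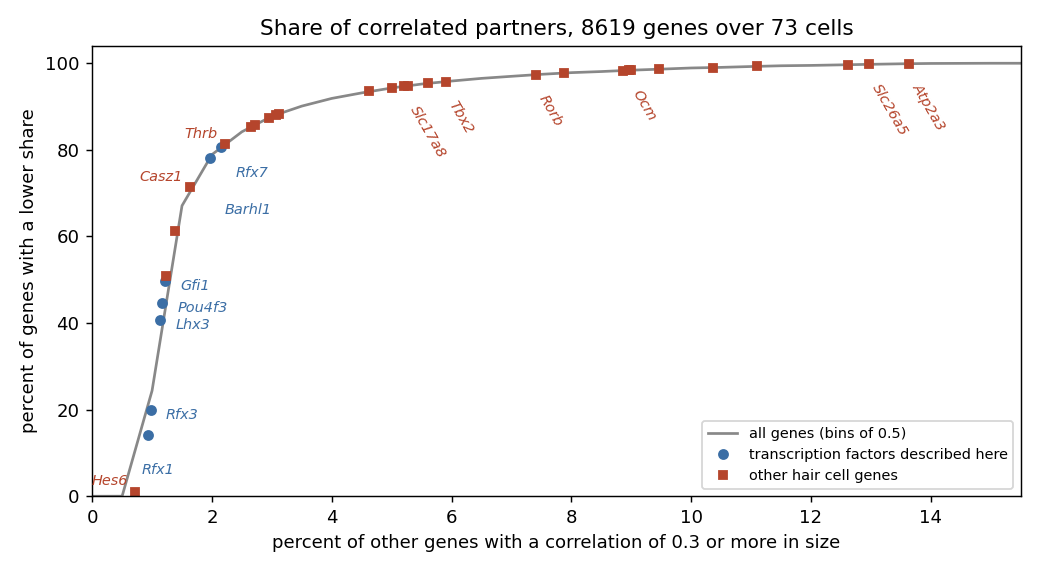
Percent of other genes that reach a rank correlation of 0.3 in size with a gene (horizontal axis) against the percent of the 8619 genes with a smaller share (vertical axis), as a grey curve over all genes, with the 7 transcription factors as blue circles and 27 other hair cell genes as red squares. The transcription factors lie between 0.928% and 2.15%, and the other hair cell genes between 0.719% and 13.6%, with 4 of them at or below 2.15%.

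The genes most like each factor were named by a fixed number of places, and none passed 0.5 with any of the 7. For Pou4f3 they were Calcoco1 (0.48), Etfb (0.42), Ptprm (0.42), Rfx7 (0.42) and Abra (0.38), with Nme5 (-0.47), Tifa (-0.45) and Arhgef38 (-0.42) lowest. For Gfi1 they were Daxx (0.45), Sipa1l3 (0.40), Lgals4 (0.38), Traf7 (0.38) and Aplp1 (0.37), with Cdk12 (-0.44), Nudt22 (-0.42) and Bzw2 (-0.41) lowest. Lhx3 was followed by Gmfb (0.42), Rbks (0.41), Tcf4 (0.40), Whrn (0.39) and Trim33 (0.38), with Dab2ip (-0.40), Abcb9 (-0.39) and Nefl (-0.38) lowest. Whrn encodes whirlin, a scaffold of the stereocilia tip and ankle links.

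Barhl1 was followed by Fbxo36 (0.45), Slc43a2 (0.42), Chchd6 (0.42), Ahcy (0.41) and Ubtd1 (0.40), with Usp8 (-0.48), Hecw2 (-0.47) and Zyg11b (-0.42) lowest. Rfx1 was followed by Tmem216 (0.43), a protein of the ciliary transition zone, then Lekr1 (0.41), Hinfp (0.40), Plpp7 (0.39) and Svil (0.38), with R3hdm4, N4bp2 and Ccdc84 lowest (-0.37 to -0.36). Rfx3 was followed by Zfp931 (0.45), Ssx2ip (0.41), Trmt13 (0.40), Svil (0.39) and Bicd1 (0.39), with Vps8 (-0.40), Afg3l2 (-0.38) and Hcfc2 (-0.37) lowest. Svil, which encodes the actin-binding protein supervillin, was thus among the 5 highest for both Rfx1 and Rfx3. Rfx7 was followed by Hikeshi (0.48), Sirt7 (0.48), Rtf2 (0.45), Taf1 (0.44) and Rn7sk (0.43), with Snx30 (-0.50) and Wdsub1 (-0.43) among the lowest.

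Library properties moved little with the 7 genes. Over 13 measures, which were total count, genes with a count, mitochondrial and ribosomal protein shares, immediate early genes and the summed markers of 8 other cell types, correlations lay between -0.32 and 0.35. Strial markers reached 0.3 in size with Barhl1 (0.35) and with Rfx7 (-0.32), 1 of 13 measures for each. For each of the other genes, 0 of 13 did. Among all genes, 1.96% reached 0.3 in size with Barhl1 and 2.15% with Rfx7. The summed strial markers were 0.275 CPM at the median and 43.2 CPM at most, and 3 of the 5, Kcne1, Tyr and Esrrb, were detected in no cell. Summed glial markers, with a median of 45.5 CPM, stood at 0.297 with Gfi1. The part of these markers in the results was not tested.

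Overlapping genes could add reads to a member if strand was not used. A430072P03Rik shares 101 exonic bases with Gfi1 on the opposite strand and was detected in 9 cells. Gm27196 shares 188 with Lhx3 and was detected in 1 cell, and C330011M18Rik shares 42 with Rfx1 and was detected in 16. For Rfx7, Gm27241 shares 417 bases and was detected in 3 cells, and Gm27232 shares 597 and had no count. No gene overlaps Pou4f3 or Barhl1, and those inside Rfx3 share no exonic base.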

How the data were processed

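Per the labels' protocols, picked cells went straight into reverse transcription (Smart-Seq HT, full-length cDNA) and the product was tagmented for sequencing. HISAT2 2.2.1, StringTie 2.2.1, featureCounts 2.0.1 and build mm10 are named in the submitters' processing notes. Their settings, strand use and annotation are not given in the sources used here. Raw counts were deposited by the authors per gene and cell, whole numbers in 1 table. Reads carry no molecular identifiers, PCR copies are therefore counted, and intervals cover counting error only. The last of 55292 rows, the reporter element WPRE (0.0161% of counts), was left out.

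CPM is a count over its library total, scaled in the usual way. Correlations are Spearman values over 73 cells for 8619 genes averaging at least 10 CPM, and 0.3 in size was used as a mark. With 1 sample there was no test and a count model was not used. No 2 of the libraries were identical, over 2628 pairs. Doublets were not called, since cells were picked by hand. The variability trend was a lowess fit (span 0.3) of log10 squared coefficient of variation on log10 mean CPM. Gene positions and exon lengths are from GENCODE vM21 and promoter windows from RefSeq. Closest genes are the 5 highest and 3 lowest by correlation, without mitochondrially encoded genes and genes lacking an official name. A gene that this rule names is not reported here. The 7 genes, the gene lists and the thresholds were chosen with earlier results of these data known, and the 14-letter element and the analysis of cells with both genes were added after values were seen. The steps were tested on simulated data. Size factors for another scaling came from scran 1.30.0 in R 4.3.3. All else used scipy 1.17.1, statsmodels 0.14.6, pandas 2.3.3, numpy 2.4.6 and matplotlib 3.10.9 under Python 3.11.15.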

Additional observations from a re-analysis of the deposited data

How the results depend on the processing

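Medians of all 7 levels stayed inside their intervals under 4 alternatives (no mitochondrial genes in the total, scran size factors, counts thinned to 11027945 per cell, and without the 22 cells with a rare marker of another cell type). Shares of cells depended on the threshold. At a single count they were 100% for Gfi1, 57.5% for Lhx3, 87.7% for Barhl1, 43.8% for Rfx1, 95.9% for Rfx3 and 80.8% for Rfx7. At 1 CPM they were 100% for Gfi1 and 86.3% for Rfx3. At 50 CPM they were 82.2% for Gfi1, 30.1% for Lhx3, 39.7% for Barhl1, 13.7% for Rfx1, 41.1% for Rfx3 and 41.1% for Rfx7. The correlation of Pou4f3 and Rfx7 was 0.26 when only cells with both were used, an alternative chosen after seeing the data. The median correlation with inner hair cell genes was 0.0077 for Pou4f3 without the 22 cells, and for Rfx1 it was 0.065 and 0.052 by Pearson's correlation of log2 values with pseudocounts of 1 and 10. The cause was not tested. Of 379 values recomputed under the scalings, thresholds, covariates, depths and cell sets, 20 moved by more than their interval or by 0.1 in a correlation. Changes of sign were counted only for correlations of 0.3 or more in size. Pou4f3 with Rfx7 was the only such value, and it kept its sign under its 8 alternatives. Weaker correlations did change sign, among them Pou4f3 with Gfi1 (0.05, lowest -0.03) and Barhl1 with Rfx7 (0.03, lowest -0.03). Of 21 pair values under settings chosen after seeing the data, 14 moved, all with only the cells that held both genes. No paired analysis was possible because the cells form 1 group.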

Other observations

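Other transcription factors of hair cells were detected in very different shares of cells: Rorb in 73, Zbtb38 in 71, Isl1 in 65 and Thrb in 60, but Hes6 in 16 and Atoh1 and Nhlh1 in 0.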
